A study of Mus musculus with 23 samples.

Results

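The comparison set the 5 tumor libraries with the highest C1QB against the 5 with the lowest, out of 14 tumor libraries and 23 libraries in all, from tumors of IL6Myc transgenic mice. C1QB encodes a chain of C1q, the complement protein that macrophages make, and the libraries were chosen by its value alone, as the count scaled to the total of its column (CPM). In order of C1QB, the C1QB-high libraries were the spleen tumor of mouse 1616, the mesenteric lymph node (MLN) tumor of mouse 1614, the spleen tumor of mouse 1611, the MLN tumor of mouse 1615 and the spleen tumor of mouse 1614. The C1QB-low libraries were the MLN tumor of mouse 1613, the spleen tumor of mouse 1612, the MLN tumor of mouse 1611, the spleen tumor of mouse 1615 and the spleen tumor of mouse 1610. Values of single libraries are given in these orders throughout. Each set held 3 spleen and 2 MLN tumors. The C1QB-high set came from 4 mice, with mouse 1614 in it by 2 libraries, and the C1QB-low set from 5 mice. Mice 1611 and 1615 gave 1 tumor to each set. At the upper limit, the spleen tumor of mouse 1614 was inside at 802 CPM and the MLN tumor of mouse 1616 outside at 624 CPM. At the lower limit, the MLN tumor of mouse 1613 was inside at 168 CPM and the MLN tumor of mouse 1610 outside at 215 CPM. These values chose the libraries and are given without a test. The sets are not groups of the study's own design.

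Both sets were untreated tumors of IL6Myc genotype that the labels call malignant plasma cells. They were drawn from all 14 tumors, 7 from MLN and 7 from spleen over 8 mice, and equal mouse numbers mark tumors of the same animal. The reference levels came from spleen B cells of wild-type Balb/c mice, 5 libraries called activated, whose cells had met the B cell mitogen LPS at 1 µg/ml during 16 hours of culture, and 4 untreated libraries called quiescent. All material had passed a magnetic negative selection for B cells before RNA was isolated, so other cells present are those the beads left behind. The labels used here do not give the age of the mice, the promoters of the transgenes or the background strain of the tumor mice. Estimated counts per library totalled 13630247 to 21253244 in C1QB-high tumors and 17948450 to 22706806 in C1QB-low tumors, a difference that did not pass an exact 2-sided permutation test (p = 0.151, n = 5 each). The labels do not say whether the 2 tumors of a mouse arose separately.

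C1q is assembled from A, B and C chains, whose genes lie side by side, and it starts the classical complement pathway when it binds antibody or dying cells. Tissue macrophages are its main source, and they clear dead cells, recycle iron and present antigen. In plasma cell tumors, macrophages are known as a source of growth and survival factors such as IL6, BAFF and APRIL. Plasma cells are the antibody-secreting end of the B cell lineage: PRDM1, IRF4 and XBP1 drive the change, PAX5 and the other B cell factors are shut off, and the endoplasmic reticulum grows under the unfolded protein response (UPR).

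The C1q chains are given as a description of the values behind the ranking, which by its choice of C1QB raises any ratio with C1QB on top in the C1QB-high set. C1QB exceeded C1QA by 105-fold, 9.545-fold, 10.3-fold, 1.99-fold and 2.255-fold in the C1QB-high tumors, against 4.035-fold, 1.05-fold, 1.29-fold, 1.155-fold and 0.955-fold in the C1QB-low tumors. Its ratio to C1QC was 1.96 to 43.8 in C1QB-high tumors and 1.09 to 4.07 in C1QB-low tumors. In the spleen tumor of mouse 1616, first by C1QB, C1QA stood at 19.05 CPM and C1QC at 45.5 CPM, scaled by TMM as are all CPM from here on, beside 1995 CPM of C1QB. C1QA in that library was below its level in all 5 C1QB-low tumors, where it stood at 32.1 to 143 CPM. On the TMM scale, C1QB stood at 1027 CPM in the MLN tumor of mouse 1616, which is outside the C1QB-high set. That was above the MLN tumor of mouse 1615 (926 CPM) and the spleen tumor of mouse 1614 (760 CPM), both inside it. Membership at the upper limit thus depended on the scaling, and the sets follow the column totals.

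The label the sets might be given, macrophage-rich and macrophage-poor, was checked against the other macrophage genes, and they did not bear it out. They overlapped between the sets. CSF1R, the receptor for the macrophage growth factor CSF1, stood at 25.1, 68.4, 97.5, 211 and 419 CPM in C1QB-high tumors, against 41.3, 245, 194, 27.9 and 40.1 CPM in C1QB-low tumors. ADGRE1, which encodes the mouse macrophage antigen F4/80, stood at 9.43, 30.7, 23.6, 295 and 79.8 CPM in C1QB-high tumors, against 14.7, 59.7, 55.6, 17.1 and 19.4 CPM in C1QB-low tumors. The MLN tumor of mouse 1615 and the spleen tumor of mouse 1614 were high in these genes, and the tumor with the highest C1QB was the lowest of the 10 in both. Of 30 macrophage genes listed, 27 were measured well enough to compare, and 0 of them separated the sets without overlap, against 5.97% higher and 11.0% lower over all genes tested. Of the 27, 23 were higher on average in C1QB-high tumors and 4 lower, with a median log2 difference of 0.88, against 0.01 over all genes. The median was 0.14 without the spleen tumor of mouse 1614 and -0.03 between the 4 highest and the 4 lowest libraries. The summed level of the list was 1004 to 6359 CPM in C1QB-high tumors and 893 to 3248 CPM in C1QB-low tumors, against 597 to 894 CPM in quiescent and 481 to 584 CPM in activated B cells. By the mean log2 level of the list, the C1QB-high tumors took ranks 13, 8, 7, 3 and 1 of the 14, and the C1QB-low tumors ranks 9, 6, 4, 11 and 12. CD68 and MRC1 were not analysed here. The sets are therefore called by C1QB alone.

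**Figure D1:**
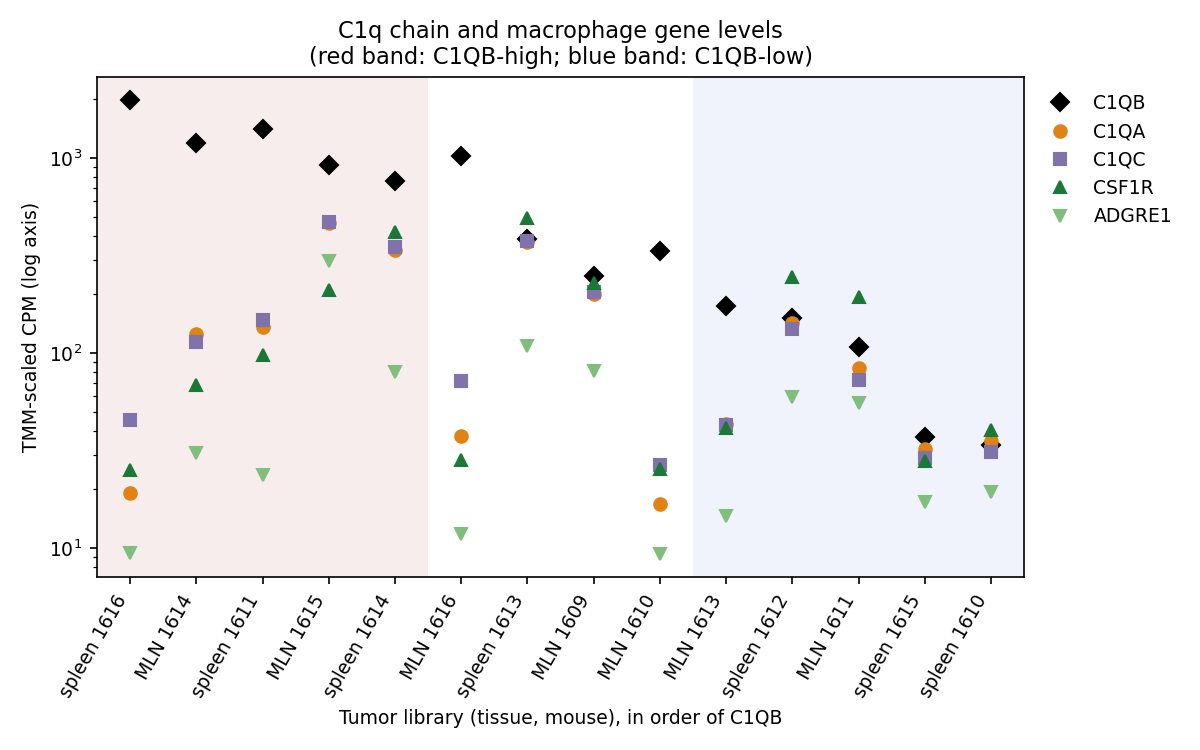
TMM-scaled CPM (log axis) of the C1q chains C1QB, C1QA and C1QC and of CSF1R and ADGRE1 in the 14 tumor libraries. The order is from highest to lowest C1QB by column total, with the C1QB-high libraries on a red band and the C1QB-low libraries on a blue one. The plotted TMM-scaled C1QB does not fall steadily in this order. The MLN tumor of mouse 1616, outside the red band, is at 1027 CPM, above 2 tumors inside it at 926 and 760 CPM. C1QB, which set the order, lies 105-fold above C1QA in the spleen tumor of mouse 1616 at the left end and 1.99-fold above it in the MLN tumor of mouse 1615, also C1QB-high, while CSF1R and ADGRE1 do not follow the order of C1QB.

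The comparison over all genes asked which genes went with the C1QB rank. Of 10967 genes tested, 1211 (11.0%) rose and 1130 (10.3%) fell in C1QB-high against C1QB-low tumors, 21.3% in all, at an adjusted p under 0.05 by edgeR's quasi-likelihood test, where 41.0% had an unadjusted p under 0.05. With upper-quartile scaling in place of TMM, 1458 rose and 835 fell. With TMM, 7 of 17 plasma cell genes and 18 of 29 UPR and secretion genes rose, and 9 of 24 B cell genes fell. With the mouse as a random block in the same 10 libraries, limma-voom called 1168 rises and 1588 falls, and without the block 1261 and 1695. The block fit thus differs from the main fit in its tool as well. Of 57 named genes that edgeR called, limma-voom lost 11 with the block and 10 without it. With C1QB as a number over all 14 tumors, edgeR called 1443 rises and 1402 falls. A further edgeR fit took C1QB as a number over the 12 tumors of the 6 mice that gave both, with a term for each mouse. It called 0 genes in either direction, at 3545 with an unadjusted p under 0.05. That fit differs from the comparison of the sets in its libraries and its measure of C1QB as well as in the mouse term. The calls also ended (0 in either direction) without any 1 of 4 C1QB-low libraries, the spleen tumor of mouse 1612, 1615 or 1610 or the MLN tumor of mouse 1611, with 3582 to 4080 genes at an unadjusted p under 0.05, and no other tool was run on those subsets. Leaving out the spleen tumor of mouse 1616 gave 706 rises and 670 falls, that of mouse 1611 256 and 154, the MLN tumor of mouse 1615 580 and 351, the spleen tumor of mouse 1614 999 and 623, and the MLN tumor of mouse 1614 1666 and 1928. All calls below are subject to these limits.

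Plasma cell genes were higher in C1QB-high tumors. XBP1, the transcription factor that expands the secretory apparatus, stood at 4430, 1254, 2247, 1714 and 1062 CPM in C1QB-high tumors, against 930, 202, 228, 175 and 140 CPM in C1QB-low tumors. The sets did not overlap, and in 4 of the 5 C1QB-low tumors XBP1 was near the level of quiescent B cells (169 to 193.5 CPM), with the MLN tumor of mouse 1613 above the others. The rise was 2.68 ± 0.63 on the log2 scale (SE, adjusted p = 0.0277). PRDM1, the factor that ends the B cell program, stood at 203, 78.6, 131, 115 and 62.35 CPM in C1QB-high tumors, against 63.9, 16.65, 12.6, 12.0 and 5.36 CPM in C1QB-low tumors. The MLN tumor of mouse 1613 reached into the range of the C1QB-high set, and the rise was 2.42 ± 0.64 (SE, adjusted p = 0.0319). IRF4, which plasma cells need to survive, averaged 609 ± 436 CPM in C1QB-high tumors and 202 ± 109 CPM in C1QB-low tumors (SD, n = 5 each), a rise of 1.60 ± 0.49 (SE, adjusted p = 0.0440).

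Of 17 plasma cell genes tested, 7 rose and 0 fell, against 11.0% and 10.3% of all genes, with a median log2 change of 1.945. DESeq2 and limma called 1 fall each. The other risers were EDEM1, which marks misfolded proteins for disposal (2.32), the folding enzyme FKBP11 (2.42), SSR4 of the translocon-associated complex (2.04) and CD28, a costimulatory receptor of T cells that plasma cells also carry (2.28). SDC1, the plasma cell surface marker CD138, stood at 384, 98.1, 190, 191 and 112 CPM in C1QB-high tumors, against 116, 27.2, 75.1, 9.445 and 8.83 CPM in C1QB-low tumors, and did not pass the test (2.04 ± 0.74, adjusted p = 0.0693). TNFRSF17, the survival receptor BCMA, was at 1.43 to 9.23 CPM in C1QB-high and 0.248 to 5.39 CPM in C1QB-low tumors and did not pass either (adjusted p = 0.226). JCHAIN, the joining chain of secreted IgA and IgM, had a log2 change of 1.82 that did not pass (adjusted p = 0.155), and CD38 and TNFRSF13B were the members with negative changes, at -0.99 and -0.43.

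Immunoglobulin transcripts took a larger share of the counts in C1QB-high tumors. They made up 18.2%, 8.58%, 17.5%, 10.1% and 6.97% in C1QB-high tumors, against 7.12%, 1.65%, 2.01%, 1.03% and 1.13% in C1QB-low tumors. Only the MLN tumor of mouse 1613 overlapped with the C1QB-high set, lying just above its lowest member. The mean was 12.3% ± 5.21 in C1QB-high and 2.59% ± 2.57 in C1QB-low tumors (SD, n = 5 each; difference 9.67 points, exact 2-sided permutation p = 0.0159, where 0.00794 is the smallest p the design allows). The test took the libraries as independent, though mouse 1614 gave 2 of them and mice 1611 and 1615 gave 1 to each set. The call ended for the 7 highest against the 7 lowest libraries (6.82 points, exact permutation p = 0.140). It also ended without mouse 1611 (8.22 points) or mouse 1615 (9.83 points), at an exact permutation p of 0.0571 each. Those tests had 4 libraries a set, so the smallest p they allow is larger than in the main test. Ranking the tumors by the macrophage list turned the direction (-8.67 points, exact permutation p = 0.183). Quiescent B cells held 2.23% to 2.79% and activated cells 0.688% to 0.842%. The leading immunoglobulin gene in C1QB-high tumors was the kappa constant gene IGKC in 4 libraries and the alpha heavy chain gene IGHA1 in the spleen tumor of mouse 1611, at 11.6% of its counts.

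Most genes of the UPR and of secretion rose. All 29 measured members were higher on average in C1QB-high tumors, 18 of 29 passed the test against 11.0% of all genes, and the median log2 change was 1.73. The endoplasmic reticulum chaperone HSPA5 (BiP) stood at 8379, 1407, 4319, 2707 and 1876 CPM in C1QB-high tumors, against 2440, 728.5, 883, 616.5 and 738 CPM in C1QB-low tumors, a log2 change of 1.79 ± 0.57 (SE, adjusted p = 0.0491). Its highest C1QB-low value, in the MLN tumor of mouse 1613, lay among the C1QB-high values. The members that separated the sets were the disulfide isomerase PDIA6 and the translocon-associated proteins SSR1 and SSR2. SSR1 was at 380.5 to 1025 CPM in C1QB-high tumors and 121 to 283 CPM in C1QB-low tumors, a rise of 1.75 ± 0.32 (SE, adjusted p = 0.0253). ERN1, the stress sensor IRE1 that splices XBP1 mRNA, rose by 2.49 ± 0.77, and the sensor ATF6 rose by 1.50. CREB3L2, a factor for secretory capacity, rose by 2.40 ± 0.67, and MANF, a secreted stress protein, by 1.99 ± 0.57. DDIT3 (CHOP), which drives cell death under unresolved stress, had a log2 change of 0.43 that did not pass (adjusted p = 0.327), and ATF4, of the third UPR branch, one of 0.62 (adjusted p = 0.0765).

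Promoters of some of these genes are known to carry the ER stress response element, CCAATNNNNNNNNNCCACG, at which ATF6 and XBP1 act together with NF-Y. It was searched on both strands in RefSeq windows of GRCm38.p6 running from 250 bases before to 50 after each gene start, with 23 of the 29 UPR genes matched by symbol. It was present in 7 of the 23 (30.4%), in 1 of 15 plasma cell genes, and in 0 of 15 B cell genes and 0 of 17 lysosomal genes with a window. Over all 27025 genes with a window the share was 0.137%, and over all 32851 windows 0.119%. Of the 12 UPR genes with a window that rose, 4 held it. The sites of the genes that held it are shown 5′ to 3′ on the strand of the element, with its fixed letters in capitals. Hsp90b1 holds a pair of them, and Derl3 is from the plasma cell list.
Calr: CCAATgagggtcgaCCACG
Canx: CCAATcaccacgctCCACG
Hspa5: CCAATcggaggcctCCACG
Pdia6: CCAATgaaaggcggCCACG
Creld2: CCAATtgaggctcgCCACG
Dnajc3: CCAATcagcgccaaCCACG
Hsp90b1, nearer site: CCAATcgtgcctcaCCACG
Hsp90b1, farther site: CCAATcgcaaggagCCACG
Derl3: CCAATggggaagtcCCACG
The Hspa5 site lies at chr2:34772025-34772043 on the plus strand, and the Pdia6 site at chr12:17266491-17266509 on the plus strand. The first 4 genes passed the test, at log2 changes of 1.16 for CALR, 0.59 for CANX, 1.79 for HSPA5 and 1.81 for PDIA6, while CRELD2 (2.14), DNAJC3 (1.69), HSP90B1 (2.17) and DERL3 (1.95) did not. A match of letters is a description of the window and says nothing about binding in these tumors.

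**Figure D2:**
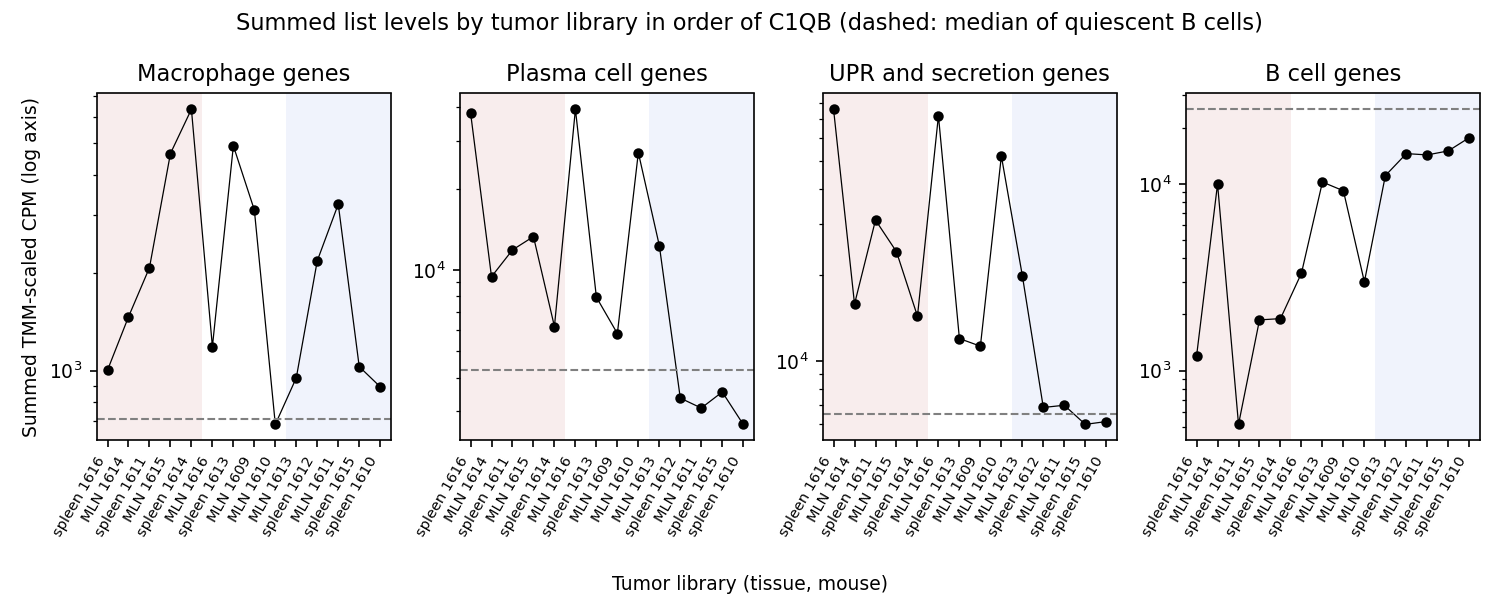
Summed TMM-scaled CPM (log axis) of the macrophage, plasma cell, UPR and secretion, and B cell lists in each tumor library. The order is from highest to lowest C1QB by column total, with the C1QB-high libraries on red, the C1QB-low ones on blue and the median of quiescent B cells dashed. The B cell sum lies at 516 to 9989 CPM in C1QB-high and 11073 to 17689 CPM in C1QB-low tumors, while the macrophage sum shows no such split.

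B cell genes were lower in C1QB-high tumors. All 24 measured members had negative log2 changes, with a median of -2.25, 9 of 24 fell past the test against 10.3% of all genes, and 18 separated the sets against 11.0% of all genes. PAX5, the factor that fixes B cell identity, stood at 24.1, 742, 6.39, 93.25 and 86.15 CPM in C1QB-high tumors, against 871, 942, 885, 938 and 1049 CPM in C1QB-low tumors. The sets did not overlap, but the MLN tumor of mouse 1614 lay close to the C1QB-low set and far above its own, and PAX5 did not pass the test (-2.30 ± 1.01, SE, adjusted p = 0.114). MS4A1, which encodes the B cell surface protein CD20, stood at 47.2, 929, 11.8, 128 and 121 CPM in C1QB-high tumors, against 796, 1369, 1395, 1447 and 1714 CPM in C1QB-low tumors. It overlapped through the same MLN tumor and did not pass the test (-2.44 ± 0.95, SE, adjusted p = 0.0832).

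The members that passed included EBF1, a factor that works with PAX5, with a fall of 2.11 ± 0.57 (log2, SE; adjusted p = 0.0331). ID3, an inhibitor of E proteins, fell by 2.40 ± 0.73, the lymphotoxin chain LTB by 2.18 ± 0.67 and the chemokine receptor CCR6 by 2.18 ± 0.68. The antigen receptor chain CD79B also fell, to 98.5 to 705 CPM in C1QB-high tumors, against 884 to 1143 CPM in C1QB-low tumors. The B cell sum was 11073 to 17689 CPM in C1QB-low tumors, near that of activated B cells (13284 to 14841 CPM) and below quiescent ones (24550 to 25500 CPM). In a bulk sample, fewer cells of a type and less RNA per cell cannot be told apart.

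MHC class II genes, through which B cells and macrophages present antigen, were lower in the same libraries. CD74, the invariant chain, stood at 288, 5640, 141, 1975 and 1313 CPM in C1QB-high tumors, against 7305, 7869, 7486, 8980 and 9070 CPM in C1QB-low tumors. The sets did not overlap, and the log2 change was -2.12 ± 0.82 (SE, adjusted p = 0.0834). Of 13 members, all had negative changes and 8 separated the sets, against 11.0% of all genes lower without overlap. By edgeR 0 of them were called, against 10.3% of all genes called lower, with 11 at an unadjusted p under 0.05 and 11 called by DESeq2 and by limma. HLA-DQB1, the human symbol under which the table lists a mouse class II beta chain, had a log2 change of -1.96 (adjusted p = 0.0694). Of 12 genes of the Fc receptor pathway, 3 fell, against 10.3% of all genes, and 1 rose, against 11.0%. The 3 also serve B cell receptor signalling. The kinase SYK stood at 251 to 696 CPM in C1QB-high tumors and 887 to 1290 CPM in C1QB-low tumors (-1.11 ± 0.26, SE, adjusted p = 0.0277). BTK, also a kinase, fell by 1.02 ± 0.23 and the inhibitory phosphatase INPP5D by 0.76 ± 0.20. The riser was FCGR3A, an activating Fc receptor of macrophages and NK cells (4.26 ± 1.29, edgeR adjusted p = 0.0437; limma-voom adjusted p = 0.188 under the random mouse block), at 1290 CPM in the MLN tumor of mouse 1615 beside 19.1 to 173 CPM in the other C1QB-high and 5.06 to 28.0 CPM in the C1QB-low tumors.

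**Figure D3:**
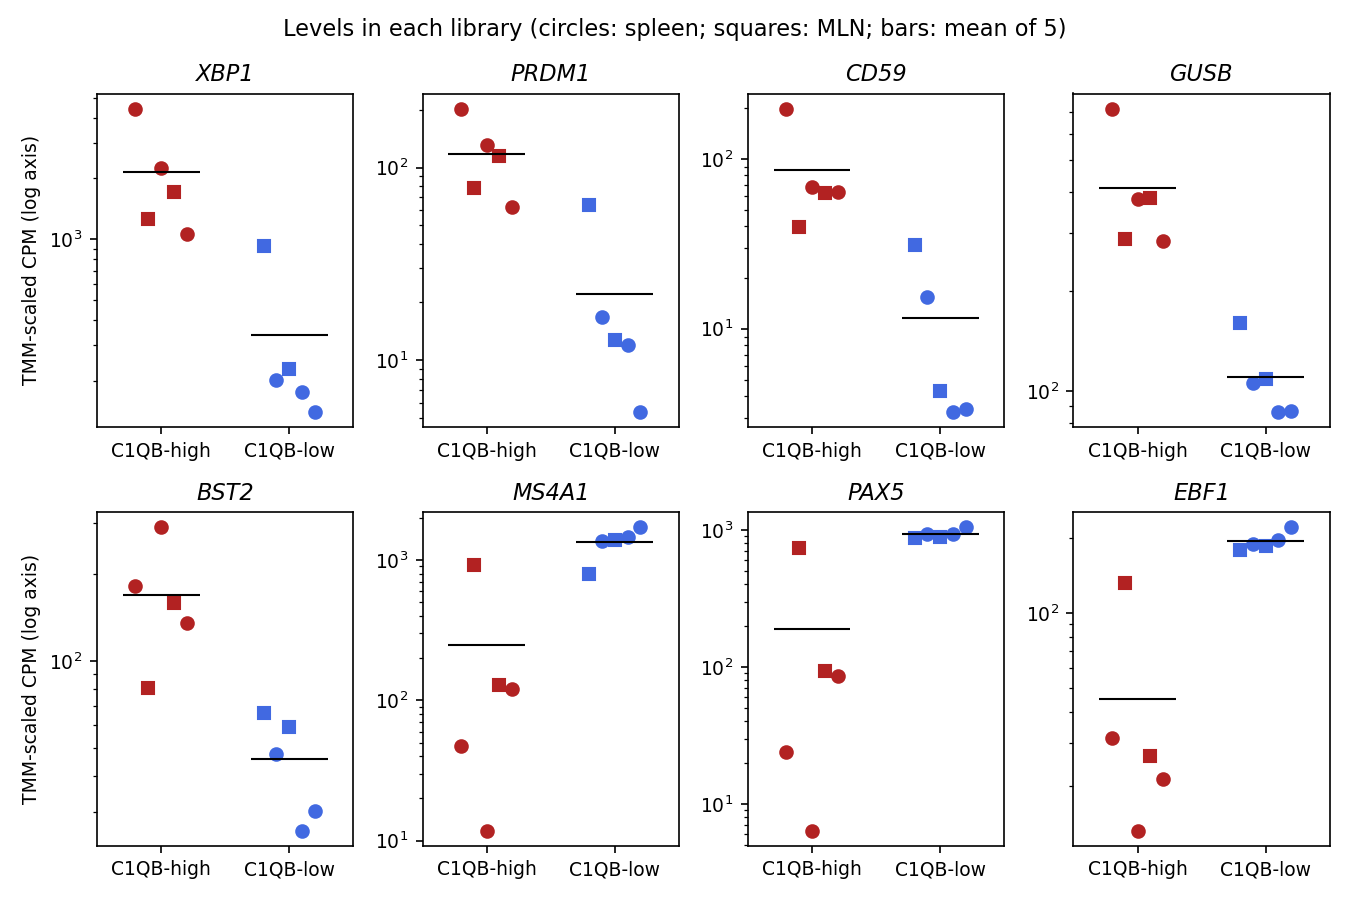
TMM-scaled CPM (log axis) in each library of XBP1, PRDM1, CD59, GUSB, BST2, MS4A1, PAX5 and EBF1, with C1QB-high tumors in red on the left and C1QB-low tumors in blue on the right, circles for spleen, squares for MLN and bars for the mean of 5. The MLN tumor of mouse 1614 is the C1QB-high square near the C1QB-low tumors for MS4A1 (929 CPM) and PAX5 (742 CPM), and the MLN tumor of mouse 1613 is the highest C1QB-low point for XBP1 (930 CPM).

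Lysosomal genes serve digestion in macrophages and turnover in many other cells. Of 22 tested, 7 rose, against 11.0% of all genes, and 1 fell, against 10.3%, with a median log2 change of 0.91. GUSB, a lysosomal enzyme that cleaves glucuronides, stood at 714, 288, 381, 384 and 284 CPM in C1QB-high tumors, against 161, 106, 109, 86.4 and 87.3 CPM in C1QB-low tumors. The sets did not overlap, and the rise was 1.90 ± 0.29 (SE, adjusted p = 0.0253). The granulin precursor GRN (2.03 ± 0.37) and the protease LGMN (1.78 ± 0.35) also separated the sets, and the proteases CTSD and CTSZ rose by 1.84 and 1.22. Among the 10 libraries, GRN and GUSB were highest in the spleen tumor of mouse 1616, which had the lowest CSF1R of the 10. Other genes of the same compartment did not pass, among them CTSS, a protease of antigen-presenting cells (0.48, adjusted p = 0.277), and CTSB (1.32, adjusted p = 0.0688).

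Of 19 complement genes tested outside C1q, 3 rose and 0 fell, against 11.0% and 10.3% of all genes. There were 2 at an unadjusted p under 0.05 in the lower direction and 2 falls by DESeq2 and by limma. SERPING1, the inhibitor of the C1 complex, stood at 4198, 238, 173, 122 and 172 CPM in C1QB-high tumors, against 43.6, 4.75, 20.5, 3.98 and 0.496 CPM in C1QB-low tumors. The sets did not overlap, with the spleen tumor of mouse 1616 far above all others, and the rise was 6.06 ± 1.57 (SE, adjusted p = 0.0306). CD59, which blocks the membrane attack complex, stood at 197, 39.8, 68.5, 63.2 and 63.6 CPM in C1QB-high tumors, against 31.2, 15.4, 4.28, 3.24 and 3.37 CPM in C1QB-low tumors, and rose by 2.91 ± 0.75 (SE, adjusted p = 0.0306). C2, the protease that C1 cleaves next, rose by 1.26 ± 0.30 and stood at 3.84 to 9.83 CPM in C1QB-high and 2.03 to 2.91 CPM in C1QB-low tumors. C3, the central component, was at 34.9 to 171 CPM in C1QB-high and 3.52 to 264 CPM in C1QB-low tumors (0.44 ± 0.95, SE, adjusted p = 0.752), and C4A, CFB, CFP and the receptors C3AR1 and C5AR1 did not pass.

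Genes of dead-cell clearance did not pass. Of 13 members of the efferocytosis list, edgeR called 0, against 21.3% of all genes, with 1 at an unadjusted p under 0.05, 1 called by DESeq2 and 2 by limma. The bridging proteins MFGE8 (log2 change 0.39, adjusted p = 0.392) and GAS6 (0.58, adjusted p = 0.549) and the scavenger receptor LRP1 (0.82, adjusted p = 0.483) did not pass, and the clearance receptors MERTK and AXL overlapped, with log2 differences of 0.99 and 0.93. Of 11 iron recycling genes, 1 rose, against 11.0% of all genes. It was the heme transporter SLC48A1 (1.50 ± 0.42, edgeR adjusted p = 0.0368). Its call was lost in limma-voom with the mouse as a random block (adjusted p = 0.0510) and in edgeR with tissue as a covariate (adjusted p = 0.0519). HMOX1, which breaks down heme, had a log2 change of 0.13 (adjusted p = 0.918), and the iron exporter SLC40A1 one of 0.56 (adjusted p = 0.685). The red pulp macrophage genes SPIC, CD5L and VSIG4 overlapped between the sets, with log2 differences of 0.83, 0.66 and 0.65 and no test.

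**Figure D4:**
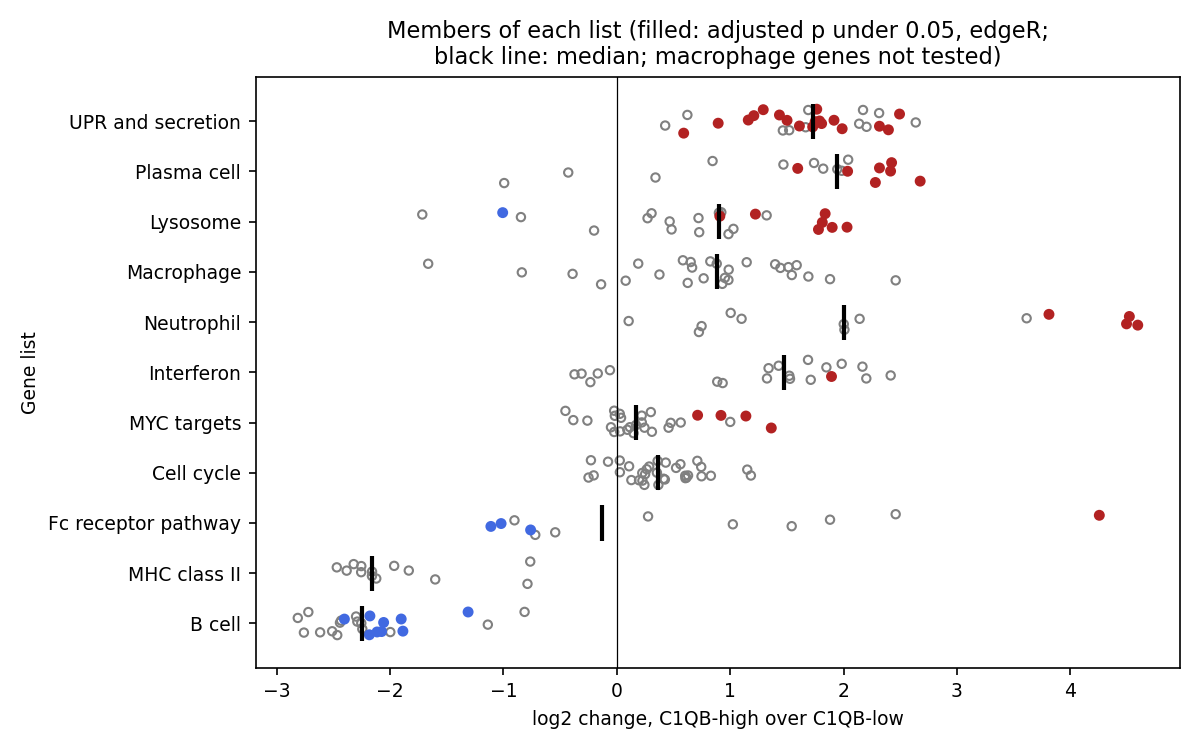
Log2 changes, C1QB-high over C1QB-low, of the members of 11 gene lists, one point per gene, filled where the adjusted p was under 0.05, with the median as a black line; macrophage genes were not tested. All 29 UPR genes lie right of 0 and all 24 B cell genes left of it, while of 27 macrophage genes 23 lie right of 0 and 4 left of it.

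Markers of further cell types were also compared, and their part in these results was not tested. By edgeR the T cell and NK cell counts were near the share over all genes, with median log2 changes of 1.51 and 1.685, against 0.01 over all genes. DESeq2 called 6 of 14 T cell genes higher and 1 lower, and 4 of 8 NK cell genes higher, where it called 2100 rises over all genes. limma called 4 T cell genes higher and 1 lower, and 2 NK cell genes higher, where it called 1334 rises. At an unadjusted p under 0.05 by edgeR, 7 T cell and 4 NK cell genes were higher and 1 T cell gene lower. Of 13 neutrophil genes, 4 rose by edgeR, against 11.0% of all genes, with 6 called by DESeq2 and 0 by limma. They were the granule or surface genes MPO (4.60 ± 1.34), ELANE (4.52 ± 1.41), CAMP (4.50 ± 1.33) and CD177 (3.81 ± 1.18). All 4 calls were lost in limma-voom with the mouse as a random block (adjusted p of 0.245 for MPO, 0.233 for ELANE, 0.253 for CAMP and 0.268 for CD177). They were also lost in edgeR with tissue as a covariate. MPO stood at 18.05, 2.03, 152, 8.42 and 263 CPM in C1QB-high tumors, against 4.89, 7.01, 1.925, 4.35 and 0.198 CPM in C1QB-low tumors, so the high values were in the spleen tumors of mice 1611 and 1614. The summed neutrophil level was 48.4 to 3104 CPM in C1QB-high and 30.4 to 1533 CPM in C1QB-low tumors. The erythroid sum was highest in the same spleen tumors, at 3956 and 2327 CPM. It spanned 37.4 to 3956 CPM in C1QB-high and 15.1 to 1286 CPM in C1QB-low tumors. Of its 8 members edgeR called 0, against 21.3% of all genes, with 1 at an unadjusted p under 0.05, 1 called by DESeq2 and 0 by limma. The T cell sum was 46.5 to 206 CPM in C1QB-high and 86.7 to 117 CPM in C1QB-low tumors, where 2 of 14 genes rose, CD28 and CD5, against 11.0% of all genes. The call of CD5 was lost in limma-voom with the mouse as a random block (adjusted p = 0.0968). Of 8 NK cell genes, 1 rose, against the same 11.0%, the receptor NCR1, at 0.710 to 6.15 CPM in C1QB-high and 0.0992 to 1.18 CPM in C1QB-low tumors. Of 10 stromal genes, 0 were called by edgeR, against 21.3% of all genes, 0 by DESeq2 or limma, and 0 had an unadjusted p under 0.05. Of 12 dendritic cell genes edgeR called 0, against the same 21.3%, with 4 at an unadjusted p under 0.05, 4 called by DESeq2 and 3 by limma, among them IRF8, which B cells also express (-1.97, adjusted p = 0.0663).

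MYC, the oncogene that gives the model part of its name, stood at 2109, 822, 1241, 1143 and 621 CPM in C1QB-high tumors, against 718, 416, 421, 312 and 440 CPM in C1QB-low tumors. The spleen tumor of mouse 1614 lay below the MLN tumor of mouse 1613, and otherwise the sets stood apart, with a rise of 1.36 ± 0.34 (SE, adjusted p = 0.0296). Of 27 genes on the list of MYC and its targets, 4 rose and 0 fell, against 11.0% and 10.3% of all genes (7 higher and 1 lower at an unadjusted p under 0.05; DESeq2 and limma also called 0 falls), with a median log2 change of 0.17. The other risers were the polyamine enzymes SRM (1.14 ± 0.26) and ODC1 (0.71 ± 0.22) and the nucleolar GNL3 (0.92 ± 0.24). Cell cycle genes had a median of 0.36, and edgeR called 0 of 33, against 21.3% of all genes, with 3 at an unadjusted p under 0.05, 2 by DESeq2 and 0 by limma. MKI67, a proliferation marker, averaged 677 ± 255.5 CPM in C1QB-high tumors and 404 ± 171 CPM in C1QB-low tumors (SD, n = 5 each; adjusted p = 0.119).

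Of 19 genes for signals between macrophages and B lineage cells, 1 rose, against 11.0% of all genes. It was TNFSF13B, which encodes the survival factor BAFF, at 1.705, 1.58, 4.08, 10.1 and 5.70 CPM in C1QB-high tumors, against 1.40, 0.362, 1.71, 0.212 and 0.496 CPM in C1QB-low tumors (2.46 ± 0.72, SE, adjusted p = 0.0396). TNFSF13, which encodes APRIL, had a log2 change of 1.15 (adjusted p = 0.376) and IL10, an anti-inflammatory cytokine, one of 1.69 (adjusted p = 0.260). The growth factor CSF1 was at 2.31 to 17.9 CPM in C1QB-high and 5.11 to 102 CPM in C1QB-low tumors (-1.94, adjusted p = 0.129). IL6 and IL34 were too low to test. Of 14 checkpoint and "don't eat me" genes, 2 rose, against 11.0% of all genes, the inhibitory receptors PDCD1 (3.36 ± 0.92, led by 26.4 CPM in the MLN tumor of mouse 1615) and VSIR (1.77 ± 0.46). The call of PDCD1 was lost in limma-voom with the mouse as a random block (adjusted p = 0.126). CD47, the brake on phagocytosis, had a log2 change of 0.35 (adjusted p = 0.403), its receptor SIRPA one of 2.10 (adjusted p = 0.0792), and the PD-1 ligand CD274 one of -0.20 (adjusted p = 0.828).

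Of 20 interferon-response genes, 1 rose, against 11.0% of all genes, BST2 (tetherin), which plasma cells also carry. It stood at 182, 80.4, 290, 159 and 135 CPM in C1QB-high tumors, against 65.8, 47.7, 58.9, 25.9 and 30.4 CPM in C1QB-low tumors, without overlap (1.89 ± 0.37, SE, adjusted p = 0.0253). The median of the list was 1.48, and IRF7 was at 64.3 to 443.5 CPM in C1QB-high and 36.1 to 245 CPM in C1QB-low tumors (adjusted p = 0.194). Of 12 genes of effector polarity, 2 fell, against 10.3% of all genes, the interleukin 4 receptor IL4R (-1.31 ± 0.35) and its factor STAT6 (-0.91 ± 0.26). Both are also expressed by B cells.

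The 8 genes with the largest rises that separated the sets were HAO1, SERPING1, TMEM59L, COLCA2, TOX3, ERICH3, CCDC68 and RNF39, at log2 changes of 4.70 to 7.20. The calls of TMEM59L, COLCA2 and ERICH3 were lost in limma-voom with the mouse as a random block (adjusted p of 0.0940, 0.0719 and 0.119). Several rested on the spleen tumor of mouse 1616: HAO1, a peroxisomal oxidase known from liver, stood at 26.0 CPM there and at 1.19 to 3.04 CPM in the other C1QB-high tumors, against 0 to 0.112 CPM in C1QB-low tumors. HAO1 passed the filter of 1 CPM in 5 libraries only through the C1QB-high set, which fixed its lack of overlap in advance. TOX3, an HMG-box nuclear protein, was spread more evenly, at 49.3, 15.3, 21.6, 25.2 and 10.1 CPM in C1QB-high tumors, against 2.08, 1.22, 0.984, 0.106 and 0.0496 CPM in C1QB-low tumors (4.76 ± 0.88, SE, adjusted p = 0.0253). CCDC68, a centriole protein, followed at 43.2 CPM in the same spleen tumor and 8.04 to 10.9 CPM in the other C1QB-high tumors, against 0.298 to 1.63 CPM in C1QB-low tumors. All 8 were near 0 in quiescent B cells, where the highest value was 0.326 CPM, of SERPING1.

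The 8 largest falls were NEBL, HS3ST1, EDARADD, TMEFF1, DTX1, SAPCD1, TRABD2B and IL12A, at log2 changes of -4.33 to -2.74. NEBL, at 0 to 0.760 CPM in C1QB-high and 2.30 to 16.0 CPM in C1QB-low tumors, passed the filter of 1 CPM in 5 libraries only through the C1QB-low set. The filter thus fixed its lack of overlap in advance. DTX1, a ubiquitin ligase of the NOTCH pathway, stood at 7.52, 116, 1.89, 15.8 and 28.5 CPM in C1QB-high tumors, against 148, 248, 233, 302 and 302 CPM in C1QB-low tumors, and at 337 to 493 CPM in quiescent B cells (-2.86 ± 0.89, SE, adjusted p = 0.0458). IL12A, a chain of interleukins 12 and 35, was at 0.237 to 3.735 CPM in C1QB-high tumors, against 4.325 to 15.0 CPM in C1QB-low tumors and 27.7 to 39.4 CPM in quiescent cells. EDARADD and SAPCD1 were likewise highest in quiescent cells, at 44.2 to 55.7 and 38.1 to 47.2 CPM. TRABD2B and TMEFF1 were not, at 2.05 to 5.81 and 2.86 to 4.70 CPM in quiescent cells beside 10.95 to 24.8 and 4.89 to 13.35 CPM in C1QB-low tumors.

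Mice 1611 and 1615 allow the sets to be compared within an animal, in opposite tissues: the C1QB-high tumor was the spleen one in mouse 1611 and the MLN one in mouse 1615. These log2 differences are of CPM plus 1, with no replicate and no test. XBP1 was higher by 3.29 in mouse 1611 and by 3.28 in mouse 1615, and PRDM1 by 3.28 and 3.15. All 29 UPR genes were higher in the C1QB-high tumor of both mice, against 28.1% of all genes, and all 24 B cell genes lower in both, against 36.4% of all genes. PAX5 differed by -6.91 in mouse 1611 and -3.32 in mouse 1615. Macrophage genes went opposite ways by C1QB set: 6 of 27 were higher in the C1QB-high tumor of both mice. ADGRE1 differed by -1.20 in mouse 1611 and by 4.03 in mouse 1615, and CD14 by -5.28 and 3.03. By tissue, these and most other macrophage genes went the same way, higher in the MLN tumor of both mice.

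**Figure D5:**
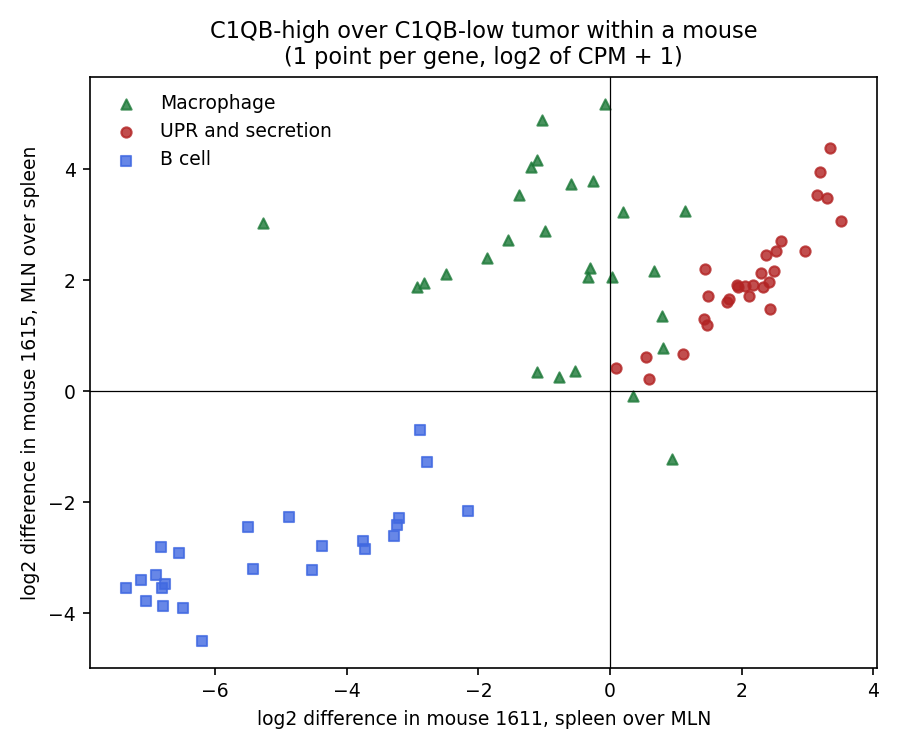
Log2 difference, C1QB-high over C1QB-low tumor, within mouse 1611 (spleen over MLN, horizontal) and within mouse 1615 (MLN over spleen, vertical), one point per macrophage, UPR and secretion, or B cell gene, on the log2 of CPM plus 1. All 29 UPR genes lie in the upper right and all 24 B cell genes in the lower left. Most macrophage genes lie upper left, lower in the C1QB-high tumor of mouse 1611 and higher in that of mouse 1615. Those genes were thus higher in the MLN tumor of both mice.

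Tissue was even between the sets. Among spleen tumors alone (3 against 3), 1237 genes rose and 1132 fell. Among MLN tumors alone (2 against 2), edgeR called 0, with 670 at an unadjusted p under 0.05. The difference between tissues was tested as an interaction, in which edgeR called 0 of 10967 genes, with 1250 at an unadjusted p under 0.05 and a smallest adjusted p of 0.394. When the 14 tumors were ranked by the macrophage list in place of C1QB, 339 genes were higher and 2 lower in the 5 tumors at the top, and of the 56 measured named genes that were called, 38 had the opposite sign. XBP1 then differed by -1.35 on the log2 scale.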

How the data were processed

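The deposited table holds estimated counts per gene under human symbols for 23 libraries; the unit was read from the values, since the file calls them TPM. Per the submitters' processing notes, Trim Galore 0.4.0 and DESeq2 were used with build GRCm39; no source used here names the quantifier, or how human symbols came to stand for mouse genes. Of 61651 entries, 21282 carried values and 17047 were above 0, and those equal in every library became 1 profile, which left 15881. Among them, 468 carried several names, and 532 names had several profiles, of which the highest was used, so values of such families are uncertain. Total counts ran from 13630247 to 25644071 and 12010 to 14195 profiles were above 0 per library.

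Counts were rounded and tested with edgeR 4.0.16 in R 4.3.3 (quasi-likelihood, 2-sided, Benjamini-Hochberg, threshold 0.05), with TMM factors over all libraries and genes at 1 CPM or more in at least 5 of the 10 libraries. SE is the size of the log2 change over the root of edgeR's F, an approximation that is poor near 0. On simulated data of 10970 genes with 50 changed per fold size, 16%, 62%, 84% and 94% were recovered at folds of 2, 4, 8 and 16. Far fewer genes changed there than were called in the tumors, which makes the adjusted threshold stricter, so these shares may not carry over. C1q and macrophage genes got no test. limma 3.58.1, DESeq2 1.42.0, other scalings and filters, the mouse as a block, tissue, other set sizes and leaving out libraries were alternatives.

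The members and lists were chosen with earlier results of these data known. Named genes are a fixed set, the 8 largest rises and falls that passed without overlap at a mean of 5 CPM or more, and up to 4 passing members a list, or its 2 most abundant; others named were chosen after their values were seen. A few genes are not reported here, though they remain in the fits and list counts. The mouse numbers pair tumors of 1 animal, per the series design text. Over genes, the pair's deviations from the mean of each tissue had correlations of -0.22, -0.39, 0.41, -0.30, -0.51 and 0.74 for mice 1610, 1611, 1613, 1614, 1615 and 1616. Motif windows are RefSeq's, of GRCm38.p6, used for letters and positions of that build only.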

Additional observations from a re-analysis of the deposited data

Results flagged for a closer look

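In 268 checks of a gene or share within 1 set of 5 libraries, 22 found a library far from the other 4, where chance gives about 5%. Most were in the C1QB-low set. The MLN tumor of mouse 1613 stood above the other C1QB-low tumors in XBP1 (930 CPM beside 140 to 228), IRF4 (393 CPM), TNFRSF17 (5.39 CPM), EDEM1 (827 CPM), MANF (437 CPM), SRM (131 CPM), GLB1 (95.7 CPM), CCDC68 (1.63 CPM) and the immunoglobulin share (7.12% beside 1.03% to 2.01%). It stood below them in CYBB (228 CPM). The MLN tumor of mouse 1611 stood above the other C1QB-low tumors in the myeloid genes C5AR1 (44.4 CPM beside 0.298 to 2.44), HDC (244 CPM), IL1B (852 CPM beside 4.72 to 20.3) and CSF1 (102 CPM), and in CD274 (351 CPM), FTH1 (4551 CPM) and IL34 (0.0428 CPM, where the others were at 0). The spleen tumor of mouse 1610 was below the rest in VSIG4 (1.59 CPM beside 3.87 to 4.66).

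Among the C1QB-high tumors, the spleen tumor of mouse 1616 stood above the others in SERPING1 (4198 CPM beside 122 to 238), COLCA2 (123 CPM beside 3.05 to 9.58), HAO1 (26.0 CPM) and CCDC68 (43.2 CPM). In the test of set by tissue, edgeR called 0 of 10967 genes at a smallest adjusted p of 0.394, with 1250 at an unadjusted p under 0.05, which does not show that changes were alike in spleen and MLN tumors. HDC, for one, had a log2 change of 3.56 in spleen tumors alone (edgeR adjusted p = 0.0292) and -5.55 in MLN tumors alone (adjusted p = 0.659).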

How the results depend on the processing

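Of the main counts, 1211 rises and 1130 falls, DESeq2 gave 2100 and 1851. limma gave 1709 falls with a pseudocount of 1 CPM and 1714 with 5 CPM. The 4 highest against the 4 lowest libraries gave 403 falls. MLN tumors alone, the 7 highest against the 7 lowest, C1QB as a number with the mouse as a fixed block, and mice 1611 and 1615 alone with the mouse fixed gave 0 in either direction, at 670, 3072, 3545 and 1714 unadjusted. With the mouse as a random block the pairing gave 1168 and 1588 (correlation -0.08), and of 57 named genes called, 46 kept the call and 11 lost it; limma-voom without the block lost 10. Without the spleen tumor of mouse 1616 and the MLN tumor of mouse 1614, 1873 fell. Leaving out 1 library or mouse gave 0 to 1695 rises and 0 to 1928 falls. Leaving out that pair together, mice 1611 and 1615 alone, and TMM over the 10 libraries were chosen after seeing the data.

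The immunoglobulin difference was 6.82 points for 7 against 7 (exact permutation p = 0.140) and 8.19 to 12.7 points without 1 library or mouse. The exact permutation p was 0.0571 without mouse 1611 or 1615, at 4 libraries a set. Ranking by the macrophage list gave -8.67 points, 339 rises and 2 falls, median log2 changes of -1.40 for plasma cell, -1.20 for UPR and 0.12 for MHC class II genes, and opposite signs for these genes, as log2 changes: LGMN -0.14, MYC -0.96, PRDM1 -0.78, XBP1 -1.35, IRF4 -1.33, SERPING1 -3.73, TMEM59L -3.67, COLCA2 -3.08, TOX3 -0.75, ERICH3 -3.15, CCDC68 -1.47, RNF39 -1.72, HS3ST1 0.14, TMEFF1 0.49, SAPCD1 0.21, TRABD2B 0.04, IL12A 0.37, CD59 -1.39, C2 -0.35, SLC48A1 -0.38, GRN -0.39, GUSB -0.78, GLB1 -1.05, CD28 -1.51, CD5 -1.56, FKBP11 -2.15, EDEM1 -1.67, ERN1 -1.05, CREB3L2 -1.08, MANF -1.60, SRM -0.96, GNL3 -0.75, ODC1 -0.33, IL1B 5.09, IL4R 0.22, STAT6 0.30, SYK 0.19, INPP5D 0.24, BST2 -0.65. CD5 was -1.41 for 7 against 7 and -0.22 with C1QB as a number, and HDC 3.56 in spleen tumors alone. The causes were not tested. In the simulation, at 5 libraries a set, 16% of 2-fold and 62% of 4-fold changes were recovered. Far fewer genes changed there than were called in the tumors, so the share missed here is not known.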

Other observations

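The 4 tumors between the sets, which the comparison did not use, fell into no single pattern. The MLN tumors of mice 1616 and 1610 had XBP1 at 3413 and 2182 CPM, immunoglobulin shares of 24.6% and 26.3%, PAX5 at 180 and 125 CPM and CSF1R at 28.2 and 25.4 CPM. The spleen tumor of mouse 1613 and the MLN tumor of mouse 1609 had XBP1 at 606 and 452 CPM, immunoglobulin shares of 4.95% and 3.84%, PAX5 at 762.5 and 580 CPM and CSF1R at 493 and 228 CPM. SERPING1 stood at 167 and 64.5 CPM in the first pair and at 16.9 and 3.28 CPM in the second. The MLN tumor of mouse 1610 was also the highest of the 14 tumors in CD28 (62.1 CPM) and CD5 (52.5 CPM).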
